A study of Mus musculus with 6 samples.

Results

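The nuclear factor I (NFI) family comprises 4 genes, Nfia, Nfib, Nfic and Nfix, and was measured by 23 of the 45037 non-control probe sets of an expression array. The members are all probe sets that the array annotation pairs with exactly 1 of these symbols: 6 for Nfia, 7 for Nfib, 5 for Nfic and 5 for Nfix. The arrays hold RNA from cells of mouse small cell lung tumours, separated by flow sorting on CD24, CD44 and EpCAM into a fraction termed tumour-propagating cells (TPCs) and a fraction termed non-TPCs. The tumours arose in Rb/p53/p130 triple knockout mice of mixed C57BL/6;129Sv/J background and were taken 6 to 7 months after adenoviral Cre was given. Mice 1127, 920 and 0107 contributed a pair of samples each, TPC and non-TPC, which makes 3 arrays per fraction. Both fractions carry the same engineered mutations and had no other treatment. The gates, the promoter that drove Cre, the animals' age and the number of tumours taken per mouse are unstated in the labels.

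NFI proteins bind DNA as dimers through a conserved N-terminal domain that recognises the palindrome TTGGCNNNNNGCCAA, and single TTGGC arms are also bound. They control the balance of growth and differentiation in many tissues, and the lungs of mice that lack Nfib stay immature at birth. In small cell lung cancer Nfib is a known driver of metastasis: it is recurrently amplified in mouse tumours of this kind, and its protein opens chromatin beside neuronal genes in metastatic cells. Nfia and Nfix are best known from the development of glia, neural stem cells and muscle, and Nfic from the formation of tooth roots.

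The signals are log2 values made by the authors with RMA, a method that corrects background, normalises arrays to a common distribution and summarises the probes of each probe set. Differences are TPC minus non-TPC on that scale. Each probe set has its own affinity, so the level of one probe set was not set against that of another as an amount of RNA. Over all probe sets 11 passed an adjusted p of 0.05 in limma (0.0244% of those tested), and all 11 were lower in TPCs. The sorting marker Cd44 averaged 7.50 ± 0.27 in TPCs, against 10.40 ± 0.32 in non-TPCs (SD, n = 3 each), and fell by 2.90 (limma adjusted p = 0.0311), while Epcam (difference 0.78) and Cd24a (0.29) did not pass. Of the genes deleted in the tumours, Rb1 differed by 0.74 and Rbl2 by -0.09, and whether their probes lie inside the deleted exons is not known, so these values check no label. The sorting marker Epcam was low on both arrays of mouse 0107, and lowest on its non-TPC array. It read 13.27, 13.35 and 11.57 in TPCs of mice 1127, 920 and 0107, against 12.95, 12.91 and 9.98 in non-TPCs. On the non-TPC array of mouse 0107 the endothelial gene Cldn5 was the highest of the 6, at 5.27, 5.26 and 5.20 in TPCs, against 7.29, 5.79 and 9.03 in non-TPCs. Some of the values that rest on that non-TPC array are also given without it, but not all of them. Leaving it out leaves the TPC array of mouse 0107 unpaired. Of 10 neuroendocrine markers 8 were measured, all 8 above the median probe set level of 6.04, and the log2 of their summed signal ranged between 14.24 and 14.65 in TPCs and between 13.85 and 14.30 in non-TPCs.

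None of the 23 NFI probe sets passed the test, with limma adjusted p-values between 0.881 and 0.996, and 1 of them had an unadjusted p under 0.05, where 5.46% of all probe sets did. Nfib gave a strong signal with small differences between the fractions. The brightest probe sets of Nfix and Nfia were lower in the TPCs of 3 of 3 mice, with mean differences of -0.75 and -0.80. The SD of the within-mouse differences was 0.16 for Nfix and 0.63 for Nfia. The mouse means spanned 1.48 and 1.22, a spread between mice that cancels in a within-mouse difference. In all, 6 NFI probe sets were lower in TPCs of 3 of 3 mice, where 12.5% of all probe sets were. Another 3 were higher in TPCs of 3 of 3 mice, where 19.3% of all were, and 14 changed sign between mice. The median difference was -0.02 over the 23 NFI probe sets and 0.04 over all probe sets. Probe sets of a gene share a transcript and are not independent. In sorted bulk samples fewer cells that express a gene and less RNA per cell cannot be told apart.

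**Figure D1:**
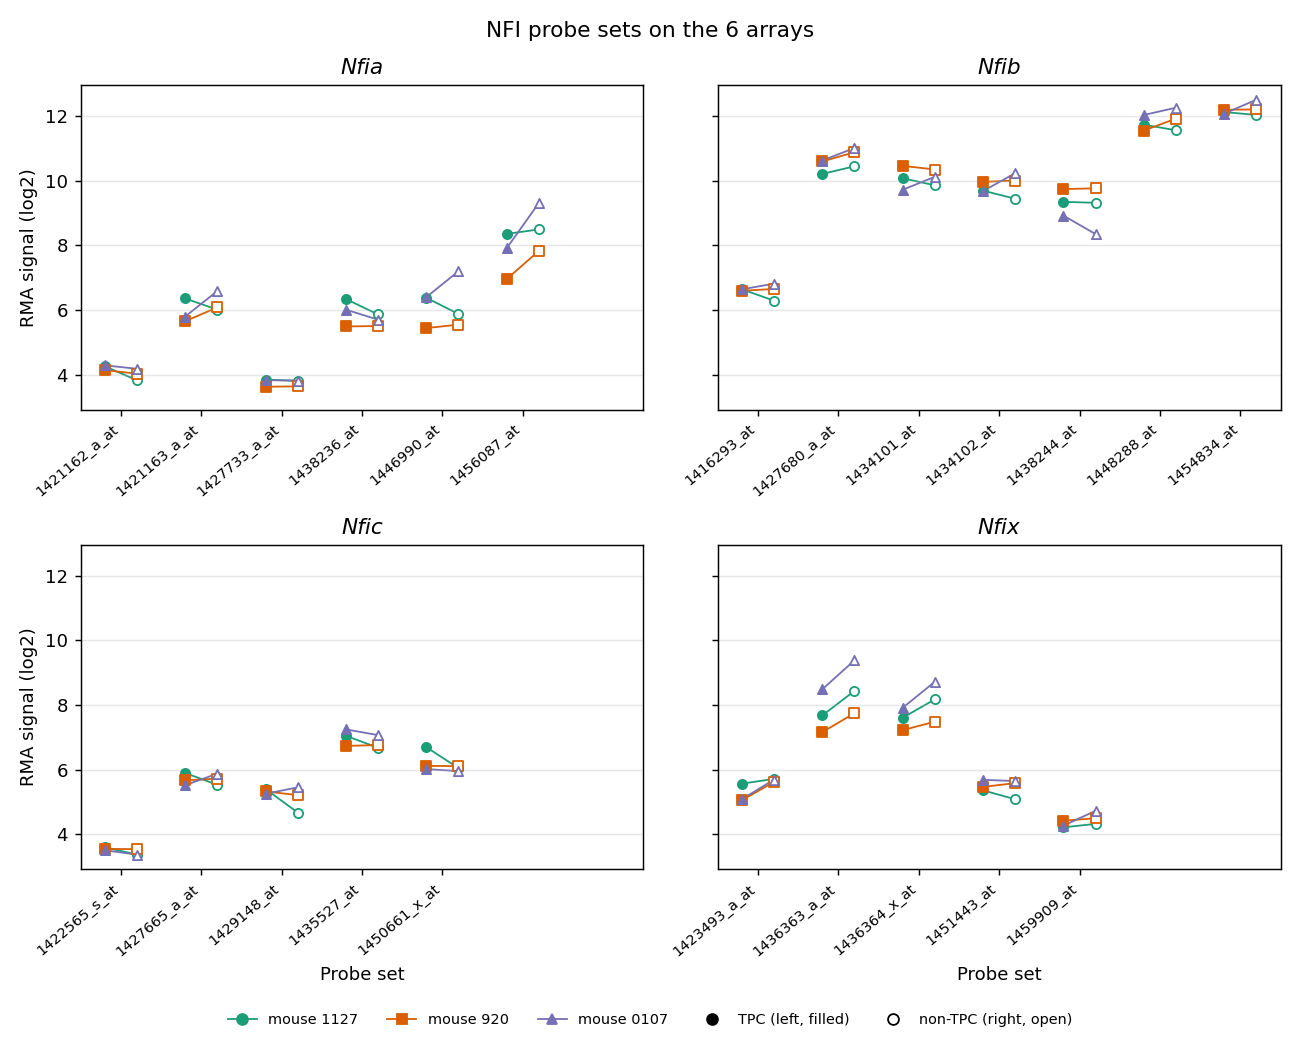
RMA signal (log2, vertical axis) of the 23 NFI probe sets on the 6 arrays, with TPC as filled symbols on the left and non-TPC as open symbols on the right of each pair, and a line joining the 2 arrays of a mouse. Nfib 1454834_at lies between 12.03 and 12.50 on the 6 arrays, whereas the non-TPC symbol of Nfix 1436363_a_at and of Nfia 1456087_at is the higher one in all 3 mice.

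Promoter windows of RefSeq (build GRCm38.p6), which reach 250 bases before and 50 bases after a transcript start, were available for Nfia, Nfic and Nfix and are shown for the 2 genes whose brightest probe set was lower in TPCs of 3 of 3 mice. The TTGGC arm was searched on both strands, where it reads GCCAA on the other strand. The Nfia window at chr4:97581693-97581992 (plus strand) holds 0 matches, and the Nfix window at chr8:84772826-84773125 (minus strand), 1 of 4 windows for that gene, holds 2, in capitals.
Nfia: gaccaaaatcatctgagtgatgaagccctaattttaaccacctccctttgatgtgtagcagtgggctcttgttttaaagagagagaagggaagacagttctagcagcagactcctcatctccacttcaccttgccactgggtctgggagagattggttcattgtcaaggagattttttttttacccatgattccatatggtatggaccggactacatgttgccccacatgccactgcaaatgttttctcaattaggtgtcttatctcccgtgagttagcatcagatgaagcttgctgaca
Nfix: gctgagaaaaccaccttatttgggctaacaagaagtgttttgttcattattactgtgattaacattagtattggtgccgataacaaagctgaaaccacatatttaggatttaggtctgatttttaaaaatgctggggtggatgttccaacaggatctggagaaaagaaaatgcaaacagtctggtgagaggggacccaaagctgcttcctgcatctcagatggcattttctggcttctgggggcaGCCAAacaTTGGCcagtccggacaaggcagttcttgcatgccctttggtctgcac
At least 1 such arm occurs in 46.7% of all 32851 windows, and the whole palindrome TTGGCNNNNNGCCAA in 0.0365%. The other Nfix windows hold 1, 1 and 0 arms, the single Nfic window holds 0, and none of the 6 NFI windows holds the palindrome. The matches describe letters in these windows.

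Nfib lay high in the arrays' own distributions of signal. Of its 7 probe sets, 6 were above the third quartile of every array, which ranged between 7.66 and 7.86. The brightest, 1454834_at, read 12.12, 12.19 and 12.07 in TPCs of mice 1127, 920 and 0107, against 12.03, 12.20 and 12.50 in non-TPCs of the same mice. The fractions overlapped, and the 6 arrays spanned 0.47. TPCs averaged 12.13 ± 0.06 and non-TPCs 12.25 ± 0.24 (SD, n = 3 each). The difference of -0.12 (SE 0.15) did not pass (limma adjusted p = 0.96), and its 95% interval ran between -0.48 and 0.25, so a difference of 1 log2 unit in either direction lies outside it. With both 0107 arrays left out it was 0.04, and with the 0107 non-TPC array alone left out 0.01.

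The second brightest Nfib probe set, 1448288_at, read 11.73, 11.55 and 12.03 in TPCs, against 11.56, 11.92 and 12.26 in non-TPCs of mice 1127, 920 and 0107. Mouse 0107 had the highest value in each fraction, and the fractions overlapped (difference -0.14, 95% interval -0.67 to 0.38). A single Nfib probe set, 1427680_a_at, was lower in TPCs of 3 of 3 mice, at 10.21, 10.59 and 10.62 in TPCs, against 10.44, 10.88 and 11.01 in non-TPCs. Its within-mouse differences were close to one another, at -0.24, -0.29 and -0.39, but the fractions overlapped across mice and the mean difference of -0.30 (SE 0.20) did not pass (limma adjusted p = 0.954).

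Probe set 1438244_at had the widest span among those of Nfib, 1.42. It read 9.34, 9.74 and 8.92 in TPCs, against 9.31, 9.76 and 8.35 in non-TPCs of mice 1127, 920 and 0107. Here mouse 0107 was the lowest in each fraction, whereas on 1448288_at and 1427680_a_at it was the highest in each, so the Nfib probe sets did not rank the mice alike. Of the other Nfib probe sets, 1434101_at differed by -0.02, 1434102_at by -0.11 and the dim 1416293_at by 0.04, each with a sign that changed between mice.

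Of the 5 Nfix probe sets, 4 were lower in TPCs of 3 of 3 mice, the most of the family. Over all probe sets 12.5% were, and the probe sets of Nfix are not independent of one another. Its brightest probe set, 1436363_a_at, read 7.68, 7.16 and 8.49 in TPCs of mice 1127, 920 and 0107, against 8.44, 7.75 and 9.39 in non-TPCs. The TPC array was the lower one in each mouse, by differences of -0.76, -0.59 and -0.90, while the fractions overlapped across mice because mouse 0107 was high and mouse 920 low in both. TPCs averaged 7.78 ± 0.67 and non-TPCs 8.52 ± 0.82 (SD, n = 3 each), with a difference of -0.75 (SE 0.49, limma adjusted p = 0.954) and a 95% interval of -1.93 to 0.43. That is 1.68-fold less on the linear scale. The difference was -0.67 without mouse 0107 and -0.32 when the 0107 non-TPC array alone was left out. Fitting each mouse as a replicate block gave an SE of 0.13 and a 95% interval of -1.08 to -0.41, which is not adjusted for the number of probe sets. The limma adjusted p in that fit was 0.257, the lowest of the family, and did not pass either.

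The other bright Nfix probe set, 1436364_x_at, shares the source accession of 1436363_a_at. It read 7.61, 7.22 and 7.92 in TPCs, against 8.18, 7.49 and 8.72 in non-TPCs (difference -0.54, SE 0.34, limma adjusted p = 0.954). The ending x in an Affymetrix name marks probes that can match other transcripts, so this probe set is the less specific of the pair. The dimmer 1423493_a_at was the single NFI probe set whose fractions did not overlap, at 5.57, 5.06 and 5.09 in TPCs, against 5.72, 5.62 and 5.70 in non-TPCs. Over all probe sets, 5.08% had every TPC array below every non-TPC array and 6.5% had every TPC array above. Its difference of -0.44 (SE 0.17) had the smallest p of the family (unadjusted 0.037) and a limma adjusted p of 0.881. At low signal, 1459909_at differed by -0.21 and 1451443_at by 0.07, and 1451443_at was the 1 Nfix probe set whose sign changed between mice.

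**Figure D2:**
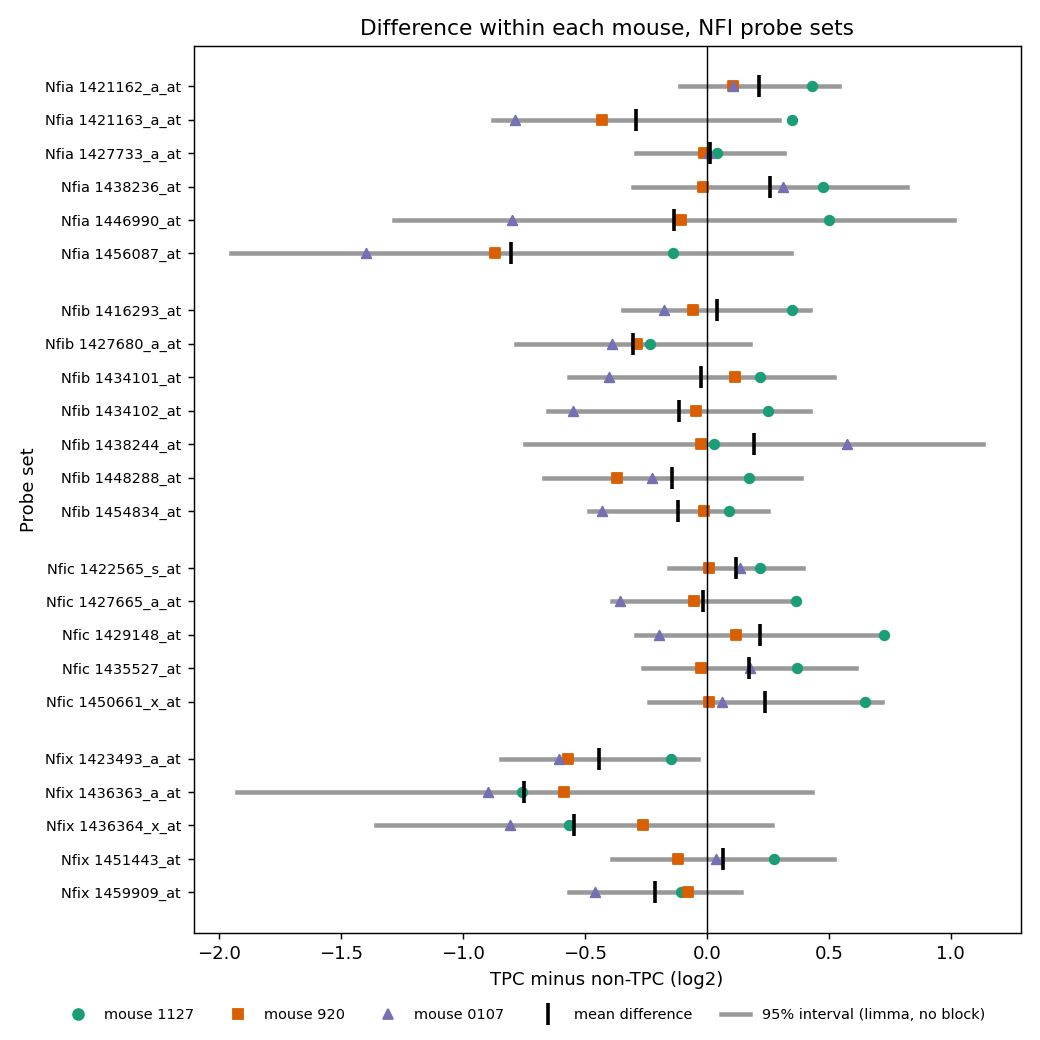
TPC minus non-TPC (log2, horizontal axis) within each of the 3 mice for the 23 NFI probe sets, with the mean difference as a black bar and its 95% interval from limma without a block in grey. The 3 symbols of Nfix 1436363_a_at sit between -0.90 and -0.59, those of Nfia 1456087_at between -1.40 and -0.14, and those of Nfib 1454834_at on both sides of 0.

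Nfia had 1 bright probe set with a lower value in TPCs of 3 of 3 mice, and 5 dimmer ones without a common direction. On 1456087_at it read 8.35, 6.96 and 7.91 in TPCs of mice 1127, 920 and 0107, against 8.49, 7.83 and 9.31 in non-TPCs. The fractions overlapped, mouse 920 was the lowest in each, and the non-TPC array of mouse 0107 stood highest. The within-mouse differences were unequal, -0.14, -0.87 and -1.40, and averaged -0.80 (SE 0.48, limma adjusted p = 0.954, 95% interval -1.95 to 0.34), or 1.74-fold less in TPCs. The TPC mean was 7.74 ± 0.71 and the non-TPC mean 8.54 ± 0.74 (SD, n = 3 each). The difference was -0.50 with both 0107 arrays left out and -0.42 with the 0107 non-TPC array alone left out. With each mouse as a replicate block the 95% interval, not adjusted for the number of probe sets, was -1.46 to -0.15. The limma adjusted p in that fit was 0.486.

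Probe set 1446990_at of Nfia also had its highest reading in the non-TPC array of mouse 0107, at 6.37, 5.44 and 6.40 in TPCs, against 5.87, 5.54 and 7.20 in non-TPCs. Its differences were 0.50, -0.11 and -0.80 in mice 1127, 920 and 0107, so the sign was not shared. On 1421163_a_at the differences were 0.35, -0.43 and -0.79 in the same order of mice, again with opposite signs. Probe set 1438236_at differed by 0.26 (0.48, -0.01 and 0.31 in the 3 mice). The last pair, 1421162_a_at and 1427733_a_at, lay below the first quartile of every array and differed by 0.22 and 0.01.

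Nfic differed by -0.01 to 0.24, and 4 of its 5 probe sets had a positive mean difference (median 0.17). The brightest, 1435527_at, read 7.05, 6.74 and 7.25 in TPCs of mice 1127, 920 and 0107, against 6.68, 6.76 and 7.07 in non-TPCs. The fractions overlapped (difference 0.17, SE 0.18, limma adjusted p = 0.954, 95% interval -0.26 to 0.61). Probe set 1450661_x_at read 6.70, 6.12 and 6.02 in TPCs, against 6.05, 6.11 and 5.96 in non-TPCs. It was higher in TPCs of 3 of 3 mice, but by 0.65 in mouse 1127 and by 0.01 and 0.06 in the other 2. The second Nfic probe set with that direction, 1422565_s_at, lay below the first quartile of every array (difference 0.12), and 1429148_at and 1427665_a_at differed by 0.22 and -0.01. The endings s and x mark probe sets that can match transcripts of other genes.

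**Figure D3:**
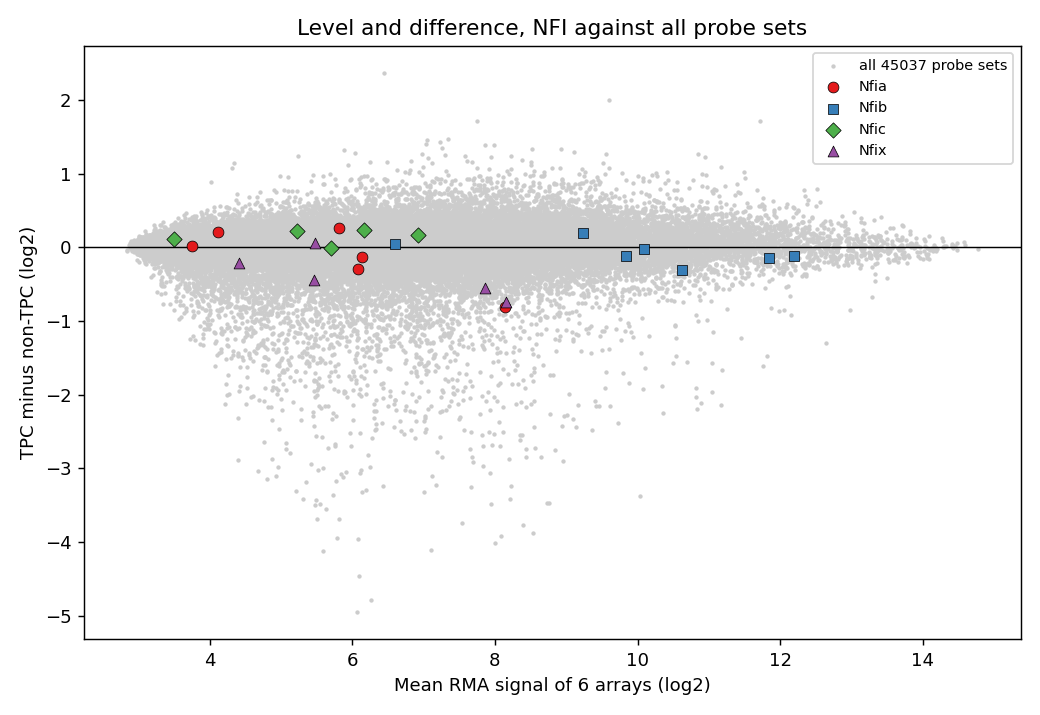
Mean RMA signal of the 6 arrays (log2, horizontal axis) against TPC minus non-TPC (log2, vertical axis) for all 45037 probe sets in grey and the 23 NFI probe sets in colour. The NFI differences lie between -0.80 and 0.26, inside the grey cloud at their levels, and 6 Nfib probe sets stand to the right of the others.

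A fit with a replicate block per mouse sets each TPC array against the non-TPC array of its own animal. It passed 9 probe sets over the whole table (0.02% of those tested), and 0 of the 23 NFI probe sets were among them. Their adjusted p-values in that fit were between 0.257 and 0.988. At an unadjusted p under 0.05 the block fit held 4 NFI probe sets, where 8.81% of all probe sets were. They were 1436363_a_at, 1436364_x_at and 1423493_a_at of Nfix and 1456087_at of Nfia, each lower in TPCs. The Nfib probe set with the smallest unadjusted p in that fit was 1427680_a_at (0.0536).

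Genes that NFI factors are known to regulate, bind or act with did not move in one direction. Of 24 listed genes 22 were measured, 1 fell (Sftpc) and 0 rose at a limma adjusted p of 0.05 over all probe sets, and 0 passed in the replicate block fit. Their median difference was 0.04, equal to that of the brightest probe sets of all 18193 genes. The list held 5 genes lower and 6 higher in TPCs of 3 of 3 mice, where 13.8% and 19.7% of all genes by their brightest probe set were. Sftpc, the surfactant protein C gene whose promoter NFI proteins bind in lung epithelium, read 9.63, 9.49 and 10.09 in TPCs of mice 1127, 920 and 0107, against 11.96, 11.94 and 11.91 in non-TPCs. The fractions did not overlap, and Sftpc fell by 2.20 (SE 0.18, limma adjusted p = 0.0378). It did not pass under the replicate block (limma adjusted p = 0.0736) or without any 1 mouse (0.137 to 0.917). Nor did it pass without any 1 TPC array, or with the 1127 or the 920 non-TPC array removed. With the mouse as a random block it passed (limma adjusted p = 0.0145).

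No other gene of that list passed, and the following are values alone. Ezh2, a histone methyltransferase that NFIB represses in the mouse forebrain, differed by -0.08 (0.33, 0.26 and -0.82 in mice 1127, 920 and 0107). Hes1, a Notch-controlled repressor that NFI factors act on in the same tissue, was lower in TPCs of 3 of 3 mice (-0.31, -0.82 and -0.63). Sox9, which acts upstream of Nfia in glia, differed by -0.17 at low signal. Cdh1, which encodes E-cadherin, had the higher value in the TPC array of each mouse (difference 0.83), at 11.54, 11.27 and 11.35 in TPCs, against 11.09, 11.17 and 9.42 in non-TPCs. The widest gap, 1.93, was in mouse 0107, whose non-TPC array was the lowest of the 6, and without that array the difference was 0.26.

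The pluripotency and epithelial factor Klf4 had the second smallest p of the list and differed by -0.71 (limma adjusted p = 0.823). Fabp7, a fatty acid binding protein of radial glia, differed by -1.42 with a sign that changed between mice, and Zcchc24, a target of NFIA and SOX9 in glia, by -0.40. Apcdd1 of the same list went the other way, by 0.57 (0.62, 0.86 and 0.24 in mice 1127, 920 and 0107). Mmd2 differed by 0.13 with a sign that changed between mice. Foxa1, a pioneer factor that binds with NFI proteins in human prostate cells, differed by 0.56 (0.19 with the 0107 non-TPC array left out), and Ski, a co-repressor that interacts with NFI, by -0.34. Nkx2-1, the lung lineage factor, averaged 5.56 in each fraction.

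Genes of axon growth and the neuronal cytoskeleton had a negative median difference, with the widest differences in mouse 0107, and none passed the test. Of the 10 genes, 0 passed in either direction, 6 were lower in TPCs of 3 of 3 mice (13.8% of all genes by their brightest probe set), and the median difference was -0.98, against 0.04 over all genes. Within each animal the median was -0.63, -0.11 and -2.33, for mice 1127, 920 and 0107. With both 0107 arrays left out the list's median was -0.55, with the 0107 non-TPC array left out -0.30, with the 920 TPC array left out -0.57 and with the 920 non-TPC array left out -1.73, and 0 members passed in any of these fits. The direction was not shared by all: Uchl1, a ubiquitin hydrolase of neurons, differed by 0.18, and Uchl1, the tubulin gene Tubb3 and the stathmin gene Stmn2 were each higher in TPCs of 2 of 3 mice, mouse 0107 being the exception. Gap43, a growth cone protein, read 5.49, 5.37 and 6.87 in TPCs, against 7.39, 6.48 and 9.96 in non-TPCs of these mice. The fractions overlapped, since the TPC array of mouse 0107 lay above the non-TPC array of mouse 920 (difference -2.04, SE 0.91, limma adjusted p = 0.926). Fez1, which takes part in axon outgrowth, read 5.74, 5.90 and 6.93 in TPCs, against 7.14, 6.00 and 9.88 in non-TPCs (difference -1.48).

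Dcx, which encodes the microtubule protein doublecortin, read 4.95, 4.65 and 6.48 in TPCs of mice 1127, 920 and 0107, against 6.13, 5.38 and 9.38 in non-TPCs (difference -1.60, limma adjusted p = 0.954). Dpysl3, a collapsin response mediator, differed by -1.68, and the neurofilament gene Nefm by -0.87 with fractions that did not overlap. With the 0107 non-TPC array left out, the differences were -1.03 for Gap43, -0.38 for Fez1, -0.40 for Dcx, -1.17 for Dpysl3 and -0.55 for Nefm. Uchl1, Tubb3 and Stmn2 were named after their values were seen. For Gap43, Fez1 and Dcx the non-TPC array of mouse 0107 was the highest of the 6, as it was for Nfix 1436363_a_at, Nfia 1456087_at and Nfib 1454834_at. How many of all genes were highest on that array was not counted. Nfib 1438244_at was lowest there (8.35), and Nfic 1435527_at was highest in the TPC array of mouse 0107 (7.25). The span of the 6 arrays was 0.47 for Nfib 1454834_at.

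Nfix and Nfia are known to be expressed in stromal and other cells of the lung as well, and markers of those cells had lower summed signals in TPCs. The log2 of the summed signal of 8 fibroblast markers ranged between 10.65 and 11.71 in TPCs and between 12.08 and 14.55 in non-TPCs, and that of 10 leukocyte markers between 10.92 and 12.20 in TPCs and between 12.52 and 13.53 in non-TPCs. For 7 alveolar type 2 markers it was 11.03 to 11.17 in TPCs and 12.73 to 13.56 in non-TPCs, and for 6 alveolar type 1 markers 9.73 to 10.08 in TPCs and 11.22 to 12.17 in non-TPCs. These ranges did not overlap, and how often lists of other genes fail to overlap was not counted. A summed signal weighs the brightest genes most. In TPCs of mouse 1127 Dcn read 11.58, where the fibroblast sum was 11.71. Dcn alone overlapped between fractions, since its non-TPC array of mouse 0107 read 11.51. In TPCs of 3 of 3 mice, 6 of the fibroblast, 8 of the leukocyte, 6 of the alveolar type 2 and 5 of the alveolar type 1 markers were lower, where 13.8% of all genes were. The other 2 leukocyte markers, the lymphocyte genes Cd3e (0.18) and Cd79a (0.44), were higher in TPCs of 3 of 3 mice, where 19.7% of all genes were. Sftpc and Sftpa1 passed the test.

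The lists of 6 smooth muscle and pericyte markers (8.26 to 8.34 in TPCs, 8.61 to 11.14 in non-TPCs), 7 endothelial markers (7.89 to 8.0 in TPCs, 8.19 to 10.15 in non-TPCs) and 5 mesothelial markers (6.82 to 7.20 in TPCs, 8.89 to 9.83 in non-TPCs) did not overlap between fractions either, while that of 5 club cell markers did (13.23 to 14.26 in TPCs, 13.61 to 15.44 in non-TPCs). In TPCs of 3 of 3 mice, all 5 club cell markers were lower, where 13.8% of all genes were. The same held for 4 of the smooth muscle and pericyte, 3 of the endothelial and 4 of the mesothelial markers. The endothelial markers Pecam1, Tie1 and Emcn and the mesothelial marker Lrrn4 lay below the first quartile of probe set levels. In non-TPCs of mouse 0107 the mesothelial marker Gpm6a read 9.60, where the sum of its list was 9.83. The lists ordered the mice in different ways. The fibroblast median was -3.53, -1.65 and -1.0 in mice 1127, 920 and 0107, and the endothelial median -0.74, 0.03 and -1.62. In the same mice Nfix 1436363_a_at differed by -0.76, -0.59 and -0.90 and Nfia 1456087_at by -0.14, -0.87 and -1.40. The summed signals of the endothelial list (-1.14, -0.22 and -2.26) and of the mesothelial list (-2.08, -1.97 and -2.63) differed most in mouse 0107 and least in mouse 920, the order of Nfix 1436363_a_at. The axon gene list, which is not one of stromal markers, had that order too by its median (-0.63, -0.11 and -2.33). By its median the mesothelial list had another order (-1.44, -0.83 and -0.20), with the smallest difference in mouse 0107. The summed signals of the fibroblast list (-2.84, -2.15 and -0.94) and of the leukocyte list (-1.79, -1.33 and -1.61) did not have the Nfix order. Nor did those of the alveolar type 2, alveolar type 1, club cell and smooth muscle and pericyte lists. An order of 3 mice is easily shared by chance. The part of these cell types in the Nfix and Nfia values was not tested.

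**Figure D4:**
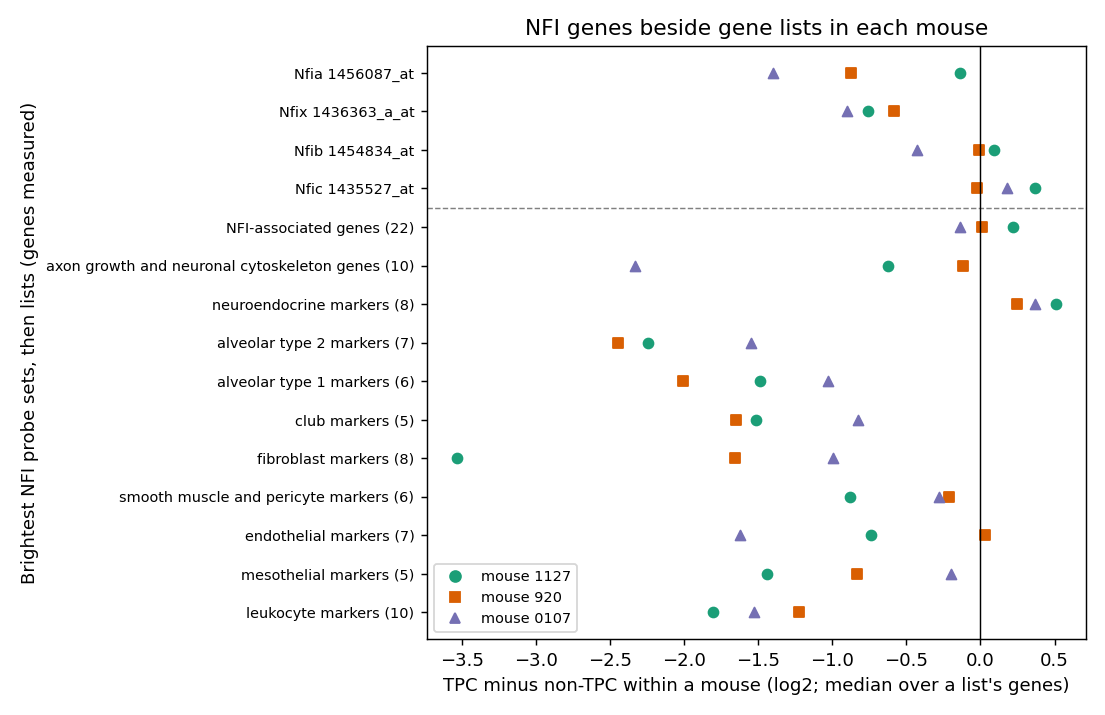
TPC minus non-TPC within each mouse (log2, horizontal axis) for the brightest probe set of each NFI gene, above the dashed line, and for the median gene of each list below it, with the number of measured genes in brackets. Mouse 0107 has the lowest axon gene median (-2.33) and mouse 1127 the lowest fibroblast median (-3.53).

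Genes beside the NFI genes were examined because Nfib is amplified in some tumours of this model. Of 24 neighbours, 3 on each side of each gene in RefSeq order, 0 passed the test with or without the replicate block. Beside Nfib, Mpdz, a scaffold protein of cell junctions, differed by -0.65 and Zdhhc21, a palmitoyltransferase, by 0.06. Farther out, Tyrp1, a melanin enzyme, differed by 0.03, Lurap1l by 0.13 and Cer1, an inhibitor of BMP and Nodal signals, by -0.17. Frem1, a basement membrane protein, had the largest difference among the 24. It read 6.15, 7.05 and 7.05 in TPCs of mice 1127, 920 and 0107, against 7.14, 8.55 and 8.21 in non-TPCs, and differed by -1.22 (SE 0.42, limma adjusted p = 0.827 without and 0.131 under the replicate block).

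The neighbours of the other NFI genes lay between -0.42 and 0.38, apart from Cyp2j6 near Nfia, a cytochrome P450 gene that differed by -0.68. Copy number was not measured, and a gain carried alike by both fractions of a mouse would cancel in TPC minus non-TPC.

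The profiles most like those of Nfix and Nfia over the 6 arrays were found by the root mean square distance between array values centred on each gene's mean, among 4505 other genes that spanned over 1 log2 unit. For Nfix 1436363_a_at the nearest were Tubb2a, a neuronal beta-tubulin gene (distance 0.16), Dpyd, which breaks down pyrimidines (0.17), and Zfp267, a zinc finger gene (0.18). Tubb2a read 9.29, 9.05 and 10.15 in TPCs of mice 1127, 920 and 0107, against 9.97, 9.39 and 11.36 in non-TPCs. Its probe set carries the ending s and can match related tubulin genes. For Nfia 1456087_at the nearest were Nefm (0.20), Tppp3, a tubulin polymerisation factor (0.21), and Erdr1 (0.21). The brightest probe sets of Nfib and Nfic spanned 0.47 and 0.57 and were not ranked. Among 4505 genes on 6 arrays some can lie this close by chance, and no typical distance was computed.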

How the data were processed

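Gene expression was measured on 1-colour Affymetrix arrays in 3 TPC and 3 non-TPC samples. RNA from cells collected in Trizol was amplified with a WT Plus kit, per the labels' protocols. That kit serves whole-transcript arrays, whereas the probe annotation is that of a 3′ expression array. How both were combined is unstated, which bears on what every probe set value measures. The authors deposited log2 signals per probe set computed with RMA, per the submitters' processing notes. The sources used here do not give the RMA version, probe set definition or log base, and log2 was inferred from how far the values range. The table holds 45101 probe sets, of which 64 controls were left out. Of the rest, 34945 pair with 1 gene symbol, 932 with several and 9160 are unlisted, and symbols were updated through Entrez identifiers to RefSeq (GRCm38.p6). The number of arrays limits the precision.

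Groups came from the sample titles. limma 3.58.1 (R 4.3.3; lmFit then eBayes, two-sided, no block) was run on all probe sets with p-values adjusted by Benjamini-Hochberg over 45037 probe sets. Both fractions of a mouse come from 1 animal, so the numbers pair the samples: deviations from the fraction means correlated at 0.31, 0.50 and 0.38 within mice 1127, 920 and 0107 and at most -0.06 between mice. Nothing says that a fraction was sampled more than once per animal, and p-values measure the spread between these samples. Listed genes are shown by the probe set with the highest mean. Always named are the NFI probe sets, the checks and neighbours of Nfib, and from each list fixed genes plus those of smallest p, with other neighbours given by range. Cyp2j6, Apcdd1, Mmd2 and the single markers named were picked for their values. Members, lists and tests were chosen with earlier results of these data known. Some listed genes were not analysed here. The procedure was tested on simulated data. Alternatives were the mouse as a fixed or random block, 1 probe set per gene, bright probe sets only, repeated quantile normalisation, an intensity trend, and leaving out each mouse or array.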

Additional observations from a re-analysis of the deposited data

How the results depend on the processing

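No NFI probe set passed under any alternative run, and the lowest adjusted p was 0.257, for Nfix 1436363_a_at with the replicate block. Over all probe sets 11 passed, against 9 with the mouse as a replicate block, 52 with the mouse as a random block, 35 with probe sets above the median level only and 40 with an intensity trend and robust prior (1 of them higher in TPCs). The count was 0 without mouse 1127, 920 or 0107, without any 1 TPC array and also with the 1127 non-TPC array removed, with 1470 to 3437 probe sets at an unadjusted p under 0.05. Removing the 920 non-TPC array gave 18, and removing the 0107 non-TPC array gave 72. The cause was not tested, beyond the smaller number of samples or probe sets. The blocked fit changed the call of Sftpc.

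The differences of 4 Nfix probe sets (1423493_a_at, 1436363_a_at, 1436364_x_at and 1459909_at), of Nfia 1456087_at, 1421163_a_at, 1421162_a_at and 1438236_at, of Nfib 1427680_a_at and of Nfic 1422565_s_at, 1435527_at and 1450661_x_at kept their sign under every alternative run on them. Nfix 1436363_a_at ranged between -1.14 and -0.32 and Nfia 1456087_at between -1.16 and -0.41. Signs turned when 1 mouse or array was left out for Nfia 1427733_a_at (-0.04 to 0.08, and -0.01 after repeated quantile normalisation) and 1446990_at (-0.47 to 0.36), for Nfib 1416293_at (-0.12 to 0.15), 1434101_at (-0.21 to 0.17), 1434102_at (-0.34 to 0.10), 1438244_at (-0.20 to 0.50), 1448288_at (-0.32 to 0.03) and 1454834_at (-0.22 to 0.04), for Nfic 1427665_a_at (-0.20 to 0.16) and 1429148_at (-0.04 to 0.42) and for Nfix 1451443_at (-0.11 to 0.17). The same held for Ezh2 (-0.28 to 0.29), Nkx2-1 (-0.15 to 0.08), Cer1 (-0.70 to 0.47), Lurap1l (-0.33 to 0.46), Tyrp1 (-0.07 to 0.11), Zdhhc21 (-0.12 to 0.27), Epcam (-0.20 to 1.37) and Rbl2 (-0.36 to 0.14).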
